A study of Mus musculus with 26 samples.

Results

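A set of 200 microarray probes was lower in TN3a thymocytes than in the TN3b, TN4 and immature single positive (ISP) stages that follow, and lower again in double positive (DP) thymocytes. They are 200 of the 46237 probes measured on normal mouse thymocytes. The choice used measured values. Each probe was scored by its lowest stage mean among TN3b, TN4 and ISP minus its higher mean of TN3a and DP, on log2 intensities quantile-normalised over 15 arrays, and the 200 highest scores were kept. Levels in those 5 stages therefore chose the members and are described without a test. ETP and TN2, which come before TN3a, and the leukaemias had no part in the choice.

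Thymocytes rearrange the T cell receptor beta chain while they rest at the TN3a stage. A beta chain that pairs with the pre-T-cell-receptor alpha chain lets the cell pass beta-selection, after which it divides rapidly through TN3b, TN4 and ISP before it returns to rest as a small DP cell. An earlier round of division takes place in ETP and TN2 cells under cytokine and Notch signals. T cell acute lymphoblastic leukaemia (T-ALL) is a leukaemia of such immature T cells.

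The series set mouse T-ALL beside stages of normal T cell development on Illumina bead arrays hybridised with biotin-labelled cRNA. The thymocytes came from C57BL/6 mice and were named by surface phenotype, as ETP (2 arrays), TN2 (2 arrays), TN3a (CD4-CD8-CD3- cells that carry CD25 without CD44 or CD28, 3 arrays), TN3b (the same with CD28, 2 arrays), TN4 (3 arrays), ISP (2 arrays) and DP (2 arrays). The T-ALL arrays were 7 of the Rag-proficient phenotype, from F1(WB x B6/Ly5.1) mice, and 3 of the Rag-deficient phenotype, on C57BL/6. Rag is the recombinase that cuts antigen receptor genes, and the labels name no allele, driver or treatment for either tumour group. Each T-ALL array is called a tumour here, although the labels do not state that each comes from its own animal. The p-values therefore cover the spread between arrays and no more.

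Detected probes made up 34.74% to 46.35% of each array, except TN2 replicate 2 with 21.37%, which was left out, so TN2 rests on 1 array. T-ALL and thymocytes shared 0 slides, and a slide effect cannot be told apart from the difference between leukaemia and thymus. Strain cannot be told apart from Rag status among the tumours, nor from leukaemia where Rag-proficient T-ALL is set against thymocytes. Most sort markers followed the stage labels. Kit, the stem cell factor receptor, had a mean log2 intensity of 12.51 in ETP and 5.91 in DP. Il2ra, which encodes CD25, was at 4.99 in ETP, 10.87 in TN2, 11.00 in TN3a, 9.10 in TN3b and 5.15 in TN4. Cd28 went from 7.18 in TN3a to 8.70 in TN3b, and Cd8b1 from 10.62 in TN3b to 13.05 in TN4 and 14.04 in ISP. The Cd8a probe was near the floor of the scale in every stage up to ISP, so it could not mark ISP. Other listed markers did not separate the stages this way. Cd24a was at 6.75 in TN3a, 6.03 in ISP and 5.45 in DP, Ptcra, the pre-T-cell-receptor alpha chain, at 10.1 in TN3a and 8.05 in TN3b, and the summed intensity of the 6 TN3b markers was 11050 to 12045 in TN3a and 7705 to 7823 in TN3b.

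Of the 200 probes, 187 had a gene symbol and stood for 156 genes, 26 of them with more than 1 member probe. The other 13 probes have no gene in the tables used and are given by probe ID. They were ILMN_2659052 and ILMN_2753497 among the 15 highest scores, and ILMN_1229210, ILMN_3161959, ILMN_2881050, ILMN_1245109, ILMN_2843349, ILMN_1226979, ILMN_2470799, ILMN_1229468, ILMN_2531281, ILMN_1259528 and ILMN_1230065 below them. The T-ALL table held 199 of the 200, so values across all groups are for 199 probes (ILMN_3161959 is missing there). The 110 further probes of the same genes gave a partial check on the naming, since 80 of them were detected on at least 2 thymocyte arrays, 61 of the 80 had a score above 0, and 32 ranked among the highest 1000 of all probes. Detected probes that lacked the pattern included ones of Bmp7 (score 0.039), Cdk1 (-0.049), Bid (-0.212), Egfl7 (-0.215), Mtif3 (-0.542) and H3c7 (-0.949). The lowest was a further H2bc21 probe at -2.00, detected on all 15 thymocyte arrays. Another Egfl7 probe scored 0.682. The lowest-ranked members were Ppil1 (score 0.892), Spdl1 (0.891) and Nup133 (0.889), and the next probes outside were Kmt5a (0.889), 1700013A01Rik (0.885) and Cdkn3 (0.880), so the boundary falls in a continuous range.

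Promoters of 5 member genes are shown because they stand for the main gene groups. Plk1, Mcm10, Mthfd2 and H3c6 are the highest-scoring members with a single RefSeq promoter for mitosis, DNA replication, nucleotide synthesis and histones. Cdk1 is the highest-scoring mitosis gene with a single RefSeq promoter that holds both CCAAT and TTTGAA. Each run is the 250 bases before the annotated start, 5′ to 3′ in the direction of the gene, from RefSeq on GRCm38.p6. Capitals mark matches on either strand to the 6 searched motifs, CCAAT (bound by NF-Y), TTTGAA (the cell cycle homology region element), TTCCCGC and TTGGCGC (E2F sites), CACGTG (an E-box) and CCGGAAG (an ETS site). Overlapping matches are merged. The windows lie at chr7:122159185-122159434 (plus strand), chr10:69352913-69353162 (minus strand), chr2:5012792-5013041 (minus strand), chr6:83317605-83317854 (minus strand) and chr13:23562386-23562635 (minus strand).
Plk1: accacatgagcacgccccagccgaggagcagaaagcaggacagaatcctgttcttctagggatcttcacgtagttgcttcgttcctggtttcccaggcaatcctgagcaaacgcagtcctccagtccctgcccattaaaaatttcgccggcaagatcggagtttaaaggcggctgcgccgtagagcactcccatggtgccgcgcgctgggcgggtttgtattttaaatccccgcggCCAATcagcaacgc
Cdk1: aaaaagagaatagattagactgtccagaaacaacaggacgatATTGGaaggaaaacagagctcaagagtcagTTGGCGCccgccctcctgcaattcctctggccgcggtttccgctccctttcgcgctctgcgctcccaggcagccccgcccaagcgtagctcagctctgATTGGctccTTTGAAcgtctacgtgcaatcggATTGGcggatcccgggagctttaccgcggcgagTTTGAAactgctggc
Mcm10: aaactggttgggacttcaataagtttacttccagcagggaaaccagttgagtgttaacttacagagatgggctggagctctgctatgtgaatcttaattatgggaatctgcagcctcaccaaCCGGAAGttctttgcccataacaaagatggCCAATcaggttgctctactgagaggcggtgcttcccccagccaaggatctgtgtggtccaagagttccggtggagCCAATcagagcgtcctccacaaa
Mthfd2: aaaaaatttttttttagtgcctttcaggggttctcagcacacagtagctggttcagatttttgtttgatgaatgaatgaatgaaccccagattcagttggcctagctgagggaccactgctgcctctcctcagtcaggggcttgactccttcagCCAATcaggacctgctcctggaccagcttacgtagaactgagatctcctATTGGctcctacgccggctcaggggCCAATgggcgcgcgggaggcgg
H3c6: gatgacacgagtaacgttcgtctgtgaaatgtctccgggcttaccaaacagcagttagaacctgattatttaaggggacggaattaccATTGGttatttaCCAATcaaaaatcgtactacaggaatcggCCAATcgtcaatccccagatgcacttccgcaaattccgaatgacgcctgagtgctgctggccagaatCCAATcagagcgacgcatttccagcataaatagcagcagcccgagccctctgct

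CCAAT was the most frequent motif of the member promoters. A promoter was found for 120 of the 149 member genes with a gene ID. Shares are of genes with a promoter, and a gene counts if any of its promoters holds the motif. CCAAT stood on either strand in 72 of the 120 (60.0%). It stood in 40.7% of the 9434 genes with a detected probe and 37.5% of all 27025 genes in the table. The pair CCAAT and TTTGAA stood in 1 promoter of 21.7% of member genes, 5.26% of detected genes and 6.45% of all. Among the mitosis genes alone the pair was found for 10 of 36 (27.8%). TTCCCGC or TTGGCGC was found for 21.7% of member genes and 10.8% of detected genes, CCGGAAG for 21.7% and 14.7%, and CACGTG for 5.83% and 9.52%. In the Cdk1 window TTTGAA begins 71 and 15 bases before the start and the nearest CCAAT, on the opposite strand, 48 bases before it. The H3c6 window holds 4 CCAAT matches and the Plk1 window 1, which begins 14 bases before the start. A match is a string of letters and not a measured binding site.

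Genes of mitosis made up the largest named group. Of 66 genes of a mitosis list with a detected probe, 45 (68.2%) were members, against 156 of all 13373 detected genes (1.17%). The mitotic kinases were Plk1, Plk4, Aurka, Aurkb, Cdk1, Bub1b and Pbk, with the Cdk1 phosphatase Cdc25c and the mitotic entry factor Cdca3. Kinetochore and centromere members were Ndc80, Spc24, Spc25, Cenpa, Cenpk, Cenpn, Cenpp, Sgo1 and Sgo2a, and the spindle checkpoint and its target were represented by Mad2l1 and Cdc20. The chromosomal passenger complex contributed Birc5, Incenp and Cdca8 beside Aurkb. Motor and spindle proteins were Kif2c, Kif4, Kif11, Kif15, Kif18a, Kif22, Kif23, Prc1, Tpx2, Aspm, Dlgap5, Nusap1 and Anln. Condensin, cohesin and chromatin factors were Ncaph, Ncapd2, Cdca5, Espl1, Top2a, Cdca2 and Mki67, and the transcription factors of late cell cycle genes were Foxm1 and Mybl2.

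Genes that copy DNA were represented less fully. DNA replication genes were members in 13 of 47 cases (27.7%). These were the origin factors Cdc6, Cdc45, Orc6, Dbf4, Mcm10, Gins1 and Gins2, the fork factors Pcna, Pole, Rfc4 and Lig1, and the fork protection factors Clspn and Tipin. Nucleotide synthesis gave 7 of 26 genes (26.9%), with Rrm1 and Rrm2 of ribonucleotide reductase, the thymidylate enzymes Tyms and Tk1, the folate enzymes Mthfd2 and Shmt2, and the purine enzyme Ppat. The histone list gave 7 of 33 genes (21.2%), DNA repair 3 of 21 (Blm, Fancd2 and Rad54l, 14.3%), G1 and S phase control 2 of 30 (Skp2 and Ccne1, 6.67%), and survival and death 1 of 17 (Bid, 5.88%).

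Growth and signalling lists held 0 members. They were ribosome biogenesis (0 of 36 genes), glycolysis and nutrient uptake (0 of 22), cholesterol and fatty acid synthesis (0 of 18), pre-TCR and TCR response (0 of 34), Notch and pre-TCR assembly (0 of 23), and migration and adhesion (0 of 18). Of all detected genes 1.17% were members, so 0 in lists this short lies near that share. Tfrc, of the nutrient uptake list, ranked 204 (score 0.880), just outside the threshold. Ribosome biogenesis genes had the same direction below the threshold, with a score above 0 for 31 of 36 and a median score of 0.27, where all genes had 2829 of 13373 above 0 and a median of -0.15. The median score was 1.08 for mitosis, 0.67 for DNA replication, 0.63 for nucleotide synthesis, 0.44 for histones and 0.38 for DNA repair. It was -1.23 for the TCR response and -1.42 for the Notch list, of which 1 gene each was above 0. These lists and the score come from the same arrays, so the counts describe who the members are.

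A further 78 genes stood in no list and were grouped by role once their membership was known. Histone genes among them were H2ac4, H2bc21, H3c4, H3c6, H3c7, H3c10, H4c2, H4c6, H4c17 and H4c18. Others act at centromeres, spindles or in cell division, namely Cenpi, Cenpm, Cenps, Cenpw, Oip5, Kntc1, Spdl1, Haspin, Spag5, Kif18b, Gtse1, Troap, Depdc1b and Anapc15. Replication, histone supply or recombination factors were Pclaf, Asf1b, Nasp, Chtf18, Esco2, Parpbp, Recql4, Pif1, Fignl1 and Mnd1, and the thymidylate synthase pseudogene Tyms-ps stood beside its parent gene. Nuclear pore and envelope genes were Ndc1, Nup133, Nup43, Seh1l and Nrm, the chromatin-bound exchange factor of Ran was Rcc1, and tubulin genes were Tuba3b, Tuba6, Tubb4b and Tubg1. Metabolic, folding and redox genes were Bcat1, Psat1, Uchl3, Tmem97, Hsph1 and Prdx4. Secreted, surface or membrane-associated products came from Bmp7, Egfl7, Stab1, Tpst1, Mpp6 and Plekhk1, and nuclear factors from Mxd3, Tcf19, Hmgb2 and Ttf2. RNA, ribosome and mitochondrial translation genes were Lsm2, Ppil1, Rpl38, Mtif3 and Lyar. The rest were Aven, Cdr2, Nt5dc2, Tmem237, Tmem238, 2010317E24Rik, 2610002D18Rik, 4833427B12Rik, 4930524J08Rik, C030025P15Rik, Gm10184 and Gm8416. Histone, tubulin and Tyms-ps probes can share sequence with near-identical copies, so the gene behind such a signal is uncertain.

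On a common log2 scale of 25 arrays the members rose at TN3b by a median of 1.75 from TN3a, stayed high, and stood 2.40 lower in DP than in ISP. The median of the 199 probes was 7.78, 8.42 and 8.44 on the 3 TN3a arrays, 9.97 and 10.06 in TN3b, 9.89, 9.74 and 9.91 in TN4, 10.33 and 10.22 in ISP, and 7.81 and 7.95 in DP. The 3 middle stages did not overlap the 2 flanking ones, which the choice of members fixes. Within the peak, ISP was the highest stage for 148 probes, TN3b for 48 and TN4 for 3, and 184 of 199 were higher in ISP than in TN4, by a median of 0.35. DP was the lowest of all 7 stages for 138 probes, ETP for 30, TN3a for 29 and TN2 for 2. In bulk RNA, fewer cells of a kind and less RNA per cell cannot be told apart.

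Plk1, the kinase that drives entry into and exit from mitosis, had the highest score (2.08). Its log2 intensity was 8.99, 9.32 and 9.50 on the TN3a arrays, 11.30 and 11.68 in TN3b, 11.69, 11.43 and 11.38 in TN4, 11.79 and 11.63 in ISP, and 8.62 and 8.44 in DP. ETP arrays were at 9.19 and 9.38 and the TN2 array at 10.59. Plk1 was thus at the TN3a level in ETP and between the flank and the peak in TN2. Birc5, or survivin, of the chromosomal passenger complex, had 3 probes among the 13 highest scores, and Aurkb, the kinase of that complex, ranked 14. The Birc5 probe ILMN_2681241 went from 9.13, 9.82 and 9.51 in TN3a to 11.41 and 11.33 in TN3b.

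Bcat1, which transaminates branched-chain amino acids, ranked second and was lower in DP than in TN3a. It was at 7.24, 6.08 and 6.99 in TN3a, 9.30 and 9.74 in TN3b, 9.46 and 9.76 in ISP, and 4.21 and 5.21 in DP. Pclaf, a PCNA-binding factor, went from 8.93, 9.56 and 10.29 in TN3a to 12.02 and 11.94 in ISP and back to 9.03 and 9.41 in DP. Mcm10, which helps load DNA polymerase at origins, was at 9.19, 9.77 and 10.33 in TN3a, 11.97 and 11.88 in ISP, and 8.98 and 9.34 in DP. The TN3a arrays differed from each other, and replicate 1 had the lowest value of the 3 for Plk1, Pclaf and Mcm10.

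Rrm2, the regulated subunit of ribonucleotide reductase, was highest in ISP, at 10.15 and 10.45, above 9.23 and 9.29 in TN3b (probe ILMN_2714565). Pcna, the replication clamp, spread widely within stages, at 10.24 and 8.29 in TN3b and 7.42, 8.67 and 6.99 in TN3a, and its TN3b and TN3a arrays overlapped on this scale. Among the histones, H3c6 was at 9.46 and 10.30 in ETP, 10.20 in TN2, 9.62, 9.87 and 9.27 in TN3a, 11.71 and 11.48 in TN3b, 12.46 and 12.09 in ISP, and 9.80 and 9.32 in DP. For all 19 histone probes of 17 genes ISP was the highest of the 3 peak stages. Histone genes of this kind supply new nucleosomes in S phase, and their messages typically end in a stem-loop in place of a poly(A) tail. How much of such messages the labelling captured was not measured, which limits the reading of histone levels.

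The members were not silent before TN3a, and TN2 carried an intermediate level. The 2 ETP arrays had medians of 8.48 and 8.74 and the TN2 array 9.25. In TN2, 174 of 199 members lay between their higher flanking stage and their lowest peak stage, 16 lay at or above the lowest peak stage, and 9 at or below the higher flank. In ETP these counts were 119, 4 and 76. From TN2 to TN3a the median change was -0.93, and 7 of 199 members were higher in TN3a, so "transient" describes the stretch from TN3a to DP and not the whole series of stages. TN2 replicate 2, the dim array, detected 176 of 199 members and had a median of 9.40 when 26 arrays were normalised together, with 114 members between, 52 at or above the lowest peak stage and 33 at or below the flank.

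TN2 and ETP were compared with limma over the 15 thymocyte arrays. The members had a median log2 difference of 0.73, where all probes had 0.00, and 179 of 199 were above 0. Of the 199, 6 passed an adjusted p under 0.05 as higher in TN2 and 1 as lower, where 0.495% and 0.741% of all 24430 probes tested passed in each direction (1.24% in all). An unadjusted p under 0.05 was reached by 71 of 199 members and 2020 of 24430 probes. The list of 66 detected mitosis genes, members or not, had a median difference of 0.76 with 1 gene called higher, DNA replication 0.44 with 0 of 47, nucleotide synthesis 0.44 with 2 of 26 higher, and histones -0.21 with 0 of 33. Within slide 4, which held ETP replicate 1 and TN2 replicate 1, 191 of 199 members were higher in TN2 (median 0.88). Within slide 6, which held ETP replicate 2 and the dim TN2 array, 157 were higher (median 0.69).

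The members called higher in TN2 were probes of Mxd3, Tyms, Spc24, Mthfd2, Birc5 and Ncaph. The Tyms probe ILMN_1247173, for the enzyme that makes thymidylate, was at 7.48 and 7.46 in ETP and 9.27 in TN2, a log2 difference of 1.80 ± 0.34 (SE, limma adjusted p = 0.0211). Spc24, part of the kinetochore's Ndc80 complex, was at 6.74 and 6.45 in ETP and 8.29 in TN2 (1.69 ± 0.35, SE, limma adjusted p = 0.0346). Mxd3, a partner of Max, was not detected on either ETP array and was at 6.58 in TN2, at least 4.07-fold higher (limma adjusted p = 0.029). For each of them the TN2 array lay above both ETP arrays. Plk1 differed by 1.30 ± 0.32 (SE) and Rrm2 by 1.77 ± 0.45 (SE) without passing (limma adjusted p = 0.0908 and 0.103). With ETP replicate 1 or replicate 2 left out, the share of members called dropped, and the share of all probes is not given there. In both cases 1 array stands against 1 and is assumed to vary like the other stages. The calls of Mxd3, Tyms and Spc24 were lost in both cases.

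Egfl7 stood apart from the other members in the early stages. Egfl7, a secreted protein best known from blood vessels, was at 13.24 and 13.10 in ETP, 10.43 in TN2, 8.72, 9.28 and 8.78 in TN3a, 10.74 and 10.53 in TN3b, and 5.04 and 5.51 in DP. Both ETP arrays were the highest of all 25, and TN2 was lower than ETP by 2.74 ± 0.38 on the log2 scale (SE, a 6.68-fold difference, limma adjusted p = 0.0022). With Egfl7, the members at or above their lowest peak stage in ETP were Nrm, an inner nuclear membrane protein, Prdx4, a peroxiredoxin of the secretory pathway, and Tmem238. Prdx4 was at 11.46 and 11.94 in ETP, 9.98 in TN2, as low as 7.21 in TN3a and 11.28 and 11.06 in TN3b, so it dipped at TN3a from a level near its later peak (TN2 against ETP, limma adjusted p = 0.0919).

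Bmp7, Bcat1 and Mxd3 lay farthest below their peak in ETP. Bmp7, a secreted ligand of the BMP family, was undetected in ETP at 4.37 and 4.19, was at 5.21 in TN2, 5.51, 6.59 and 6.41 in TN3a, 8.59 and 8.41 in TN3b, 9.04 and 8.70 in ISP, and 7.38 and 6.93 in DP. Its mean was higher at each stage than at the one before up to ISP. These values are for probe ILMN_2589662. A second Bmp7 probe, ILMN_1249526, was detected on 10 thymocyte arrays and scored only 0.039. Cdr2, an antigen of paraneoplastic cerebellar degeneration, was undetected in ETP and at 8.29 and 8.22 in ISP.

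The tumours carried the members at levels near those of the peak stages. The median of the 199 probes was 9.69 to 9.86 on the 7 Rag-proficient arrays and 9.85, 9.88 and 9.89 on the 3 Rag-deficient ones, and each tumour detected all 199. In Rag-proficient T-ALL 78 members were at or above the lowest peak stage, 118 between it and the higher flank, and 3 at or below the flank. In Rag-deficient T-ALL these counts were 109, 88 and 2. Since those stages chose the members and lie on other slides, the counts are a description.

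Against ETP, most members were higher in both tumour groups. In Rag-proficient T-ALL 135 of 199 passed as higher and 3 as lower (limma, adjusted p under 0.05), where 13.8% and 14.2% of 28597 probes did (28% in all). In Rag-deficient T-ALL 139 passed as higher and 3 as lower, where 10.9% and 10.7% of probes did (21.6% in all). The median log2 difference of the members was 1.26 and 1.40, and that of all probes 0.04 and 0.05. Both comparisons use the same ETP arrays. Without ETP replicate 1, which leaves 1 ETP array, the Rag-deficient share of members called dropped. The share of all probes is not given there.

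Among the gene lists, mitosis gave the most called members, with 52 of 60 probes higher in Rag-proficient and 49 of 60 in Rag-deficient T-ALL. Its share was not the highest in either group. The 19 histone probes passed as higher in 12 and 16 cases, and DNA repair members in 4 and 1 of 4. DNA replication members passed in 9 and 10 of 17 probes and nucleotide synthesis members in 7 and 8 of 11. Over whole lists, members or not, the Rag-proficient tumours had 42 of 66 mitosis genes called higher and 0 called lower, and 14 of 47 DNA replication genes called higher and 5 called lower. For Rag-deficient T-ALL the counts were 35 and 0 for mitosis and 13 and 1 for replication.

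Cdk1, the kinase that triggers mitosis, was at 8.23 and 8.59 in ETP, 9.92 in TN2 and 10.94 and 10.82 in ISP. In Rag-proficient T-ALL it was at 10.77 to 11.49 (median 11.19), and in Rag-deficient T-ALL at 11.45, 11.16 and 11.43. Every tumour lay above both ETP arrays, with log2 differences of 2.73 ± 0.25 and 2.93 ± 0.29 (SE, limma adjusted p = 6.92e-08 and 2.27e-07). Plk1 was at 10.86 to 11.36 (median 11.14) and at 11.41, 10.98 and 11.05 in the tumours, 1.85 ± 0.18 and 1.86 ± 0.21 above ETP (SE, limma adjusted p = 1.63e-07 and 1.26e-06).

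Some replication factors were near the ETP level in the tumours. Pcna was at 7.52 and 8.48 in ETP, 6.74 to 7.91 (median 7.50) in Rag-proficient and 7.98, 7.61 and 7.89 in Rag-deficient T-ALL, and the groups overlapped (limma adjusted p = 0.393 and 0.862). Pole, the leading-strand polymerase, was at 8.92 and 9.65 in ETP and 8.62 to 8.99 (median 8.93) in Rag-proficient T-ALL (limma adjusted p = 0.21). The uncharacterised 2610002D18Rik, twelfth by score, was at 8.84 and 8.65 in ETP, 7.80 to 9.11 (median 8.54) in Rag-proficient and 9.77, 8.33 and 8.34 in Rag-deficient T-ALL, with overlap again (limma adjusted p = 0.727 and 0.933).

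Among the members called in Rag-proficient T-ALL against ETP, Cdr2, Bmp7 and Bcat1 had the largest differences. In Rag-deficient T-ALL they were Cdr2, Bmp7 and Mxd3, the last at least 13.8-fold over ETP (limma adjusted p = 2.29e-09). Cdr2 was at 4.69 and 4.57 in ETP, undetected, and at 9.93 to 11.73 (median 10.36) in Rag-proficient and 10.72, 9.15 and 10.08 in Rag-deficient T-ALL. Its tumour levels lay above every thymocyte array, at least 60.0-fold and at least 41.0-fold over ETP (limma adjusted p = 5.52e-10 and 2.46e-08). Bmp7 was at 8.83 to 9.59 (median 9.18) and 9.51, 8.58 and 9.06 in the tumours, at least 24.6-fold and at least 22.5-fold over ETP (limma adjusted p = 3.32e-11 and 5.7e-10). Bcat1 was at 9.04 to 9.81 in 6 Rag-proficient tumours and at 6.90 in tumour 1, and the group was 3.70 ± 0.51 above ETP (SE, limma adjusted p = 1.55e-05).

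The members called lower than ETP in both tumour groups were Egfl7, Nrm and Tmem238. Egfl7 was at 9.82 to 10.91 (median 10.49) in Rag-proficient T-ALL, -2.74 ± 0.26 from ETP, and at 10.82, 10.16 and 10.48 in Rag-deficient T-ALL, -2.68 ± 0.29 from ETP (SE, limma adjusted p = 8.8e-08 and 1.03e-06). The TN2 array, at 10.43, lay inside both tumour ranges. Nrm differed from ETP by -1.31 ± 0.23 and -0.93 ± 0.27 (SE, limma adjusted p = 0.000252 and 0.015), and its Rag-deficient call was lost without ETP replicate 2, without Rag-deficient tumour 1 and under median scaling. Tmem238, a small membrane protein, differed by -1.51 ± 0.37 and -1.85 ± 0.42 (SE, limma adjusted p = 0.00416 and 0.00325), and both calls were lost under median scaling, the Rag-proficient one also without ETP replicate 2.

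Against TN2, 30 members passed as higher and 1 as lower in Rag-proficient T-ALL, where 4.83% and 5.23% of probes did (10.1% in all), and 42 and 0 in Rag-deficient T-ALL, where 3.56% and 3.74% did (7.3% in all). The median member difference was 0.57 and 0.67. TN2 has 1 array here, and with TN2 replicate 2 added the share of members called was 40.7% in place of 15.6% and 34.2% in place of 21.1%. The share of all probes called rose as well for Rag-proficient T-ALL and is not given for Rag-deficient T-ALL. The rise is therefore not read as a result about the members. Among the members called in Rag-proficient T-ALL, Cdr2, Bmp7, Tpst1 and Bcat1 had the largest differences, led by Cdr2 at 5.26 ± 0.53 and Bmp7 at 3.96 ± 0.37 (SE, limma adjusted p = 8.07e-07 and 2.42e-07). Tpst1, a tyrosine sulfotransferase, was at 6.74 in TN2 and 9.11 to 9.91 (median 9.38) in Rag-proficient T-ALL (limma adjusted p = 0.000302). Nrm was the member called lower, at -1.14 ± 0.31 (SE, limma adjusted p = 0.0221), and that call was lost under median scaling.

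Markers of other cell types moved with these comparisons. Of 7 erythroid markers with a probe, 6 were detected on every tumour, with a summed intensity of 50861 to 66870, against 4 in ETP with 1961 to 2718, 4818 in TN2 and 153 to 268 from TN3a to DP. Hba-a1, a globin, had a mean log2 level of 14.59 in Rag-proficient T-ALL and 5.55 in ETP, while Epb42 was near the floor in both. Of 12 myeloid markers, 9 were detected on all Rag-proficient, 10 on all Rag-deficient and 7 on both ETP arrays, with sums of 8891 to 45969, 10914 to 20201 and 25165 to 30997, against 6895 in TN2, and 0 of 12 from TN3b to DP. The myeloid markers Itgam and Itgax were near the floor in tumours, at 4.30 and 4.38 in the Rag-proficient group. In TN3b, TN4 and ISP, the peak stages, at most 1 of the 7 erythroid markers was detected on all arrays and the myeloid sum was 224 to 277. TN3a, a flanking stage that also chose the members, had 2 of 12 myeloid markers detected on all arrays and a sum of 1121 to 2348. NK markers summed to 6362 to 7729 in ETP, 5043 in TN2, 172 to 573 in Rag-proficient and 150 to 168 in Rag-deficient T-ALL. Of 5 NK markers with a probe, 1 was detected on both ETP arrays and 1 in TN2. Nkg7 was at 12.76 in ETP, while Klrb1c, Klrk1, Eomes and Ncr1 were at 4.88, 4.54, 4.19 and 4.24. The stromal and epithelial sums were 310 to 507 in ETP, 606 in TN2, 694 to 1081 in Rag-proficient and 566 to 716 in Rag-deficient T-ALL. The gamma-delta T cell markers ranged from 180 to 13163 over the Rag-proficient tumours. The part of any such cells in the tumour levels and in the difference between TN2 and ETP was not tested.

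Between the tumour groups no member passed the test. Of 199 members 0 passed an adjusted p under 0.05 in limma, where 87 of 22951 probes (0.379%) did, 0.0697% as higher and 0.309% as lower in Rag-deficient T-ALL, and 23 members and 2236 probes had an unadjusted p under 0.05. The median difference, Rag-deficient minus Rag-proficient, was 0.18, with 145 of 199 above 0. Within slide 3, which held Rag-proficient tumour 7 and all Rag-deficient tumours, it was 0.20 with 121 above 0. Spc24 was at 7.79 to 8.76 (median 8.44) in Rag-proficient and 9.11, 9.66 and 9.15 in Rag-deficient T-ALL without overlap, a difference of 0.97 ± 0.25 (SE, limma adjusted p = 0.201). Mxd3 was at 7.11 to 7.79 (median 7.66) and at 8.25, 8.56 and 8.20, also without overlap (0.78 ± 0.18, SE, limma adjusted p = 0.144).

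Histone members were spread more widely over the tumours than mitosis members. The median of the 19 histone probes was 11.83 in Rag-proficient tumour 1, 9.73 to 10.47 in the other 6, and 11.04, 11.31 and 10.24 in the Rag-deficient tumours. Tumour 1 was the highest of the 7 for all 19 probes. The 60 mitosis probes had medians of 9.91 to 10.23 over the Rag-proficient and 9.90, 10.28 and 10.30 over the Rag-deficient tumours, with tumour 1 at 10.00, inside that range. The Rag-deficient mean was above the Rag-proficient mean for all 19 histone probes, by a median of 0.77, with limma adjusted p from 0.321 to 0.802. It was 1.00 without tumour 1, and 1.31 within slide 3. The 19 probes can share target sequence and are not independent.

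H3c6 was at 13.30 in tumour 1, 11.03 to 12.02 in the other Rag-proficient tumours and 12.37, 13.11 and 12.24 in the Rag-deficient ones. H3c3 was at 10.12, 7.01 to 8.69, and 9.64, 10.29 and 9.25, a group difference of 1.30 ± 0.50 (SE, limma adjusted p = 0.432). Against ETP 12 of 19 histone probes were called higher in Rag-proficient and 16 in Rag-deficient T-ALL. In TN2, 11 of 19 were above ETP and 0 were called. The median of the 19 probes was 8.68 and 9.60 on the ETP arrays and 9.18 in TN2, which lay between them. That of the 60 mitosis probes was 8.23 and 8.59 in ETP and 9.34 in TN2, above both.

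The spread between Rag-proficient tumours was otherwise ordinary. The SD over the 7 tumours had a median of 0.34 for members and 0.33 for all probes kept, and for members it ran from 0.08 to 1.29. The widest were ILMN_2470799, a probe with no gene name, at 5.12 to 9.28 (median 7.97), Hsph1, a chaperone of the heat shock family, at 8.63 to 12.19 (median 10.23), and Mpp6, a membrane scaffold protein, at 5.62 to 8.88 (median 7.83). Mpp6 and Bcat1 were lowest in tumour 1. Mthfd2, the mitochondrial folate enzyme, was even over the Rag-proficient tumours at 8.37 to 9.10 (median 8.70), and at 9.00, 6.26 and 8.80 in the Rag-deficient ones, where tumour 2 stood at the level of ETP (6.79 and 6.41). A second Mthfd2 probe had the same order, at 11.51, 8.82 and 11.18. Mki67, the proliferation antigen Ki-67, chosen after its values were seen, was at 10.97 to 12.26 (median 12.13) in Rag-proficient tumours and at 10.37, 10.66 and 12.20 in Rag-deficient ones, so tumours 1 and 2 lay below all 7 Rag-proficient tumours and the third among them (difference -0.81 ± 0.39, SE, limma adjusted p = 0.533). Psat1, a serine synthesis enzyme also chosen after its values were seen, was lower in DP, at 8.65 and 8.49, than on any other array, with tumours at 10.64 to 12.26.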

How the data were processed

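Expression was measured in 26 mouse samples, and each was grouped by its own label. Per the labels' protocols, cells were used directly or sorted, and labelled cRNA came from the Ambion MessageAmp kit. Scanner software is not given in the sources used here. The authors deposited probe intensity without background correction or normalisation as the values show, with a detection p-value beside each intensity per the file headers, in a table of 10 T-ALL arrays (46089 probes) and one of 16 thymocyte arrays. T-ALL p-values are 2-sided there and were made one-sided around each array's background. The authors also deposited log2 values of all arrays, with a median of 6.79 in each column. Matched by probe ID, that table correlates with the intensities at a Spearman coefficient of 0.9999 in T-ALL columns and of -0.00304 to 0.00657 in thymocyte columns, so its T-ALL columns were used as an alternative for the tumour comparison alone. The authors' tool and probe centring are unknown.

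Intensities of 25 arrays, without TN2 replicate 2, were corrected with normexp (offset 16), put on a log2 scale and quantile-normalised in limma 3.58.1 (R 4.3.3, statmod 1.5.0). A probe was detected at a one-sided p under 0.01, and kept if detected on 3 of 10 T-ALL arrays or on 2 arrays in the other fits. Each group had its own mean in lmFit and eBayes, and 2-sided p-values had Benjamini-Hochberg adjustment over all probes kept. Where a group detected a probe on 0 arrays, a fold is a bound, taken per array against its lowest detected value, or against the probe itself if that is brighter. The fits were tested on simulated data. Probes were named through the platform annotation and RefSeq (35667 of 46237 with 1 symbol). Promoters are RefSeq's. The members, the gene lists and the rule for named genes (highest scores, threshold neighbours, up to 6 per list, the largest called changes, extremes in ETP and in tumour SD) were chosen with earlier results of these data known. Other genes were added after their values were seen. Precision is limited by the number of arrays.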

Additional observations from a re-analysis of the deposited data

Results flagged for a closer look

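Among 56 named members, 9 had 1 tumour far from the other 6 Rag-proficient tumours by Dixon's test at the 95% level, which chance gives in about 1 of 20 such groups. The histone genes among them share sequence, so they count as fewer than 6 independent cases. In Rag-proficient tumour 1 the log2 intensity was high for H3c7 (12.65, the others 10.26 to 11.12), H3c1 (12.31, the others 9.85 to 10.78), H2bc12 (11.87, the others 9.77 to 10.55), H4c11 (11.35, the others 9.43 to 9.98), H2bc6 (11.92, the others 9.83 to 10.60) and H4c9 (12.02, the others 9.77 to 10.66). The same tumour was low for Bcat1 (6.90, the others 9.04 to 9.81) and for the folate enzyme Shmt2 (8.54, the others 9.56 to 10.10). Rag-proficient tumour 4 was high for Prdx4 (12.37, the others 11.47 to 11.83).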

How the results depend on the processing

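No paired analysis was possible because replicate numbers follow accession order and pair no samples, so slide was tried as a block instead. No result reversed. The comparison of TN2 with ETP depended most on the processing. The share of all probes called can change with the setting too, and it is given below for few settings. Changes in the share of members called are therefore not read as results about the members. The share of members called, 3.52% as reported, was 9.55% without background correction, 1.01% with median scaling, 6.03% without the filter on dim probes, 6.53% with trend and robust options, 5.53% with slide as a fixed block, 8.04% with TN2 replicate 2 added, 2.26% over the 400 highest scores, and 0.503% to 1.51% when 1 ETP array was left out. With TN2 replicate 2 in place of replicate 1, an alternative chosen after seeing the data, it was 33.2%, where 22.5% of all probes were called. The share called against TN2 with TN2 replicate 2 added was 40.7% for Rag-proficient T-ALL (28.7% of all probes). It was 34.2% for Rag-deficient T-ALL, where the share of all probes is not given. Without that array, the Rag-deficient share was 33.3% over the 100 and 13.8% over the 400 highest scores. Leaving out 1 array gave 46.7% to 72.4% for Rag-proficient T-ALL against ETP and 47.2% to 64.8% for Rag-deficient T-ALL. The tumour comparison called 0 members under every alternative run. Of the rule's 200 probes, 197 stayed with TN2 replicate 2 in the normalisation, 153 with normexp correction, 170 with median scaling, 167 to 192 without 1 array, 162 within slide 7, 119 within slide 6 and 131 within slide 4. Slides 4 and 6 lack DP and a peak stage, so their score uses fewer stages. All 200 members were above 0 within slides 4, 6 and 7. The same arrays chose the members, so this is not independent support for the pattern. In 18 cases a named gene (Mxd3, Tyms, Spc24, Tmem238 or Nrm) kept its direction and lost its call. The cause was not tested. The number of arrays and signal near background limit the dim members in ETP and DP.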
